A study of Triticum aestivum with 18 samples.

Results

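Wheat roots from a field plot without phosphate fertiliser were compared with roots from a nutrient-replete plot of the same field experiment. The comparison used the 3 arrays titled as unfertilised with phosphate, called low P here, and the 3 arrays of the control plot, which are 6 of the 18 arrays of the series. All 6 samples were roots of the winter wheat cultivar Hereward taken at booting in 2011 from the continuous wheat plots of the Broadbalk experiment. In the low P samples phosphorus fertiliser had been withheld since 1843, and the control plants are described as having optimal nutrient supply. The other 12 arrays, 3 each from plots low in K, Mg, N or S, served to estimate the spread and as a second set of roots to compare with. K, Mg and N fertiliser had been withheld since 1843 as well, and S since 2000. The labels call the samples of a group biological replicates of one treatment and do not tie them to separate plots. P-values therefore measure the spread between these samples, and a plot's own soil and its fertiliser cannot be told apart.

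Plants take up phosphorus as inorganic phosphate through root transporters. When phosphate runs short, transcription factors of the PHR family switch on genes for phosphate transporters, secreted acid phosphatases and enzymes that replace membrane phospholipids with galactolipids and sulfolipids. Roots also release organic acids, which free phosphate bound in the soil, and change their growth, with more branching and longer root hairs in many species. Whether the canonical part of this response was present could not be read here: no gene of the phosphate-starvation list or of the nutrient transporter list was named by the array annotation used. Of 61179 wheat probe sets, 1273 were paired with a gene and 59906 were not. The paired genes with an interpretable symbol numbered 102, and 75 of them had a probe set bright enough to be tested.

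A probe set, the group of short probes that reports 1 transcript or a family of close copies, was tested unless it was dimmer than the median of the array on more than 15 of the 18 arrays. Of the wheat probe sets, 34255 (56%) passed this filter. The 878 probe sets that reached it on exactly 3 arrays had a median intensity of 46.1, and 10 of them were called higher and 0 lower, while the 1195 that reached it on exactly 2 arrays, with a median of 40.1, were left out. Values are linear MAS5 intensities, and differences are in log2, low P minus control, with the SE of the fit. Calls were made where limma gave an adjusted p under 0.05, with Benjamini-Hochberg adjustment over all tested probe sets.

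Control array 2 stood apart from the other control arrays in its median intensity and on the first principal component. The median intensity of the wheat probe sets was 69, 69.8 and 69.1 on the low P arrays, against 53.6, 68.6 and 54.4 on control arrays 1, 2 and 3. On the first principal component the low P arrays lay at 60.3, 42.5 and 63.9 and control arrays 1, 2 and 3 at -66.2, 12.3 and -52.8. Control array 2 correlated with the low P arrays at 0.959 on average, close to its 0.9603 with control arrays 1 and 3, whereas control arrays 1 and 3 correlated with the low P arrays at 0.9375 and 0.9441. Among the control arrays, 2 and 3 correlated at 0.9656, 1 and 3 at 0.9643, and 1 and 2 at 0.9551. By correlation, control array 2 was thus as close to control array 3 as control array 1 was. In its median, control array 2 lay among the low Mg arrays (68.5 to 72). On the component it lay just below the low Mg arrays (13.9 to 18.3) and low S array 2 (13.3), short of the low P arrays. For probe sets called higher, control array 2 lay a median 33.3% of the way from control arrays 1 and 3 to the low P arrays, and for those called lower 13.8%. These probe sets were called with control array 2 in the fit, so the shares only describe them. Results are therefore given with all 3 control arrays and again without control array 2.

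**Figure D1:**
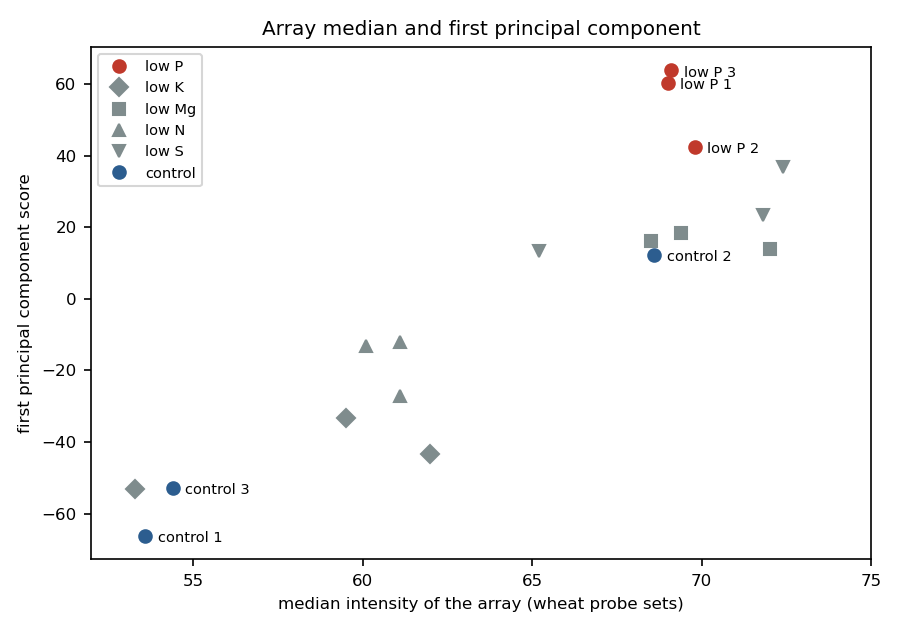
Median intensity of the wheat probe sets (x axis, linear MAS5 units) against the score on the first principal component (y axis) for the 18 arrays, 1 point an array. The low P arrays lie at 42.5 to 63.9 on the component, control arrays 1 and 3 at -66.2 and -52.8, and control array 2 at 12.3 with a median of 68.6, beside the low Mg arrays at 13.9 to 18.3.

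The ubiquitin control probe sets gave a 5'/3' intensity ratio, which falls when RNA is degraded, of 1.12, 1.09 and 1.11 on the low P arrays, against 1.28, 1.19 and 1.28 on the control arrays. The groups did not overlap, and the other deficiencies ran from 1.15 to 1.32. The same ratio of 4 other control genes overlapped between the groups, with 2.85, 3.64 and 3.98 for GAPDH in low P, against 2.53, 3.67 and 4.65 in control, and 0.589, 0.152 and 3.61 for actin in low P, against 3.62, 2.53 and 0.0912 in control. The part of this difference in the results below was not tested. The control probe sets of the array were fitted apart from the others, with adjustment over control probe sets only. In that fit limma called 1 of them, the 3' probe set of a CYP86 gene (-1.19, adjusted p = 0.002).

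Low P roots differed from control roots at 3257 of the 34255 tested probe sets (9.51%). Of these, 1434 were higher in low P (4.19% of those tested) and 1823 were lower (5.32%). The changes were mostly moderate. The median difference of the called probe sets was 0.745 among the higher and -0.616 among the lower, and 468 rose and 372 fell by at least 2-fold. Changes of at least 4-fold were more often increases, with 155 higher against 60 lower. The low P and control arrays did not overlap at 1343 of the higher and 1698 of the lower called probe sets. Over all tested probe sets the low P arrays lay above all control arrays at 13.6% and below all of them at 11.5%.

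Without control array 2 the number of called probe sets was 5041 (14.7% of those tested), with 2674 higher (7.81%) and 2367 lower (6.91%). Of the calls made with all arrays, 2822 (86.6%) were made again in the same direction, 1271 higher and 1551 lower. These were 56% of the calls made without control array 2. No probe set was called in opposite directions by the 2 fits. Leaving out control array 2 added 1403 higher and 816 lower calls and removed 163 higher and 272 lower ones. There were 847 calls when control array 3 was left out, 1351 for low P array 1 and 1250 for low P array 3. A fit to the 6 compared arrays alone called 149.

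The direction of the calls varied with the brightness of the probe set. When the tested probe sets were split into 3 bins of equal size by mean intensity, the dim bin held 336 higher and 136 lower calls, the middle bin 501 and 582, and the bright bin 597 and 1105. The share called was 4.13%, 9.49% and 14.9% in the dim, middle and bright bins. The median log2 difference over all probe sets of a bin, called or not, was 0.225 in the dim, 0.0421 in the middle and -0.0345 in the bright bin. Without control array 2 the dim bin held 834 higher and 134 lower calls and the bright bin 881 and 1656. Of the calls, 44% were higher with all arrays and 53% without control array 2. After quantile normalization, which gives all arrays the same distribution, the share higher was 38.6% with all arrays and 44.7% without control array 2. With arrays centred on the 75th percentile it was 39.6% and 40%.

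**Figure D2:**
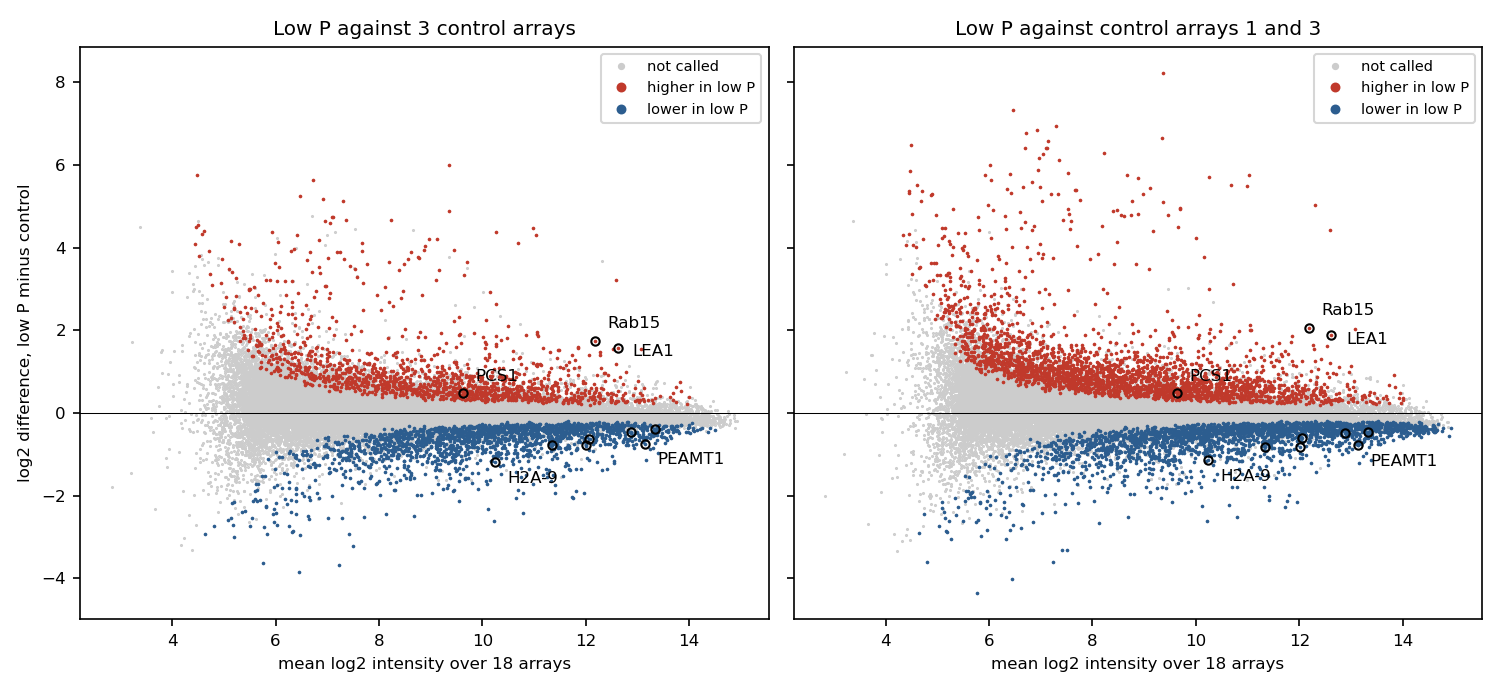
Log2 difference, low P minus control (y axis), against mean log2 intensity over 18 arrays (x axis) for the 34255 tested probe sets, with all control arrays on the left and without control array 2 on the right. Red points were called higher and blue points lower in low P at an adjusted p under 0.05, and black circles are the named genes. Calls number 3257 on the left and 5041 on the right, where higher calls grew mostly among dim and middle probe sets and lower calls among bright ones (1656 in the bright bin, against 1105 on the left).

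Of the 122 tested probe sets of the 75 genes with an interpretable name, 3 were called higher and 19 lower. They belonged to 11 genes, of which 3 had a higher and 8 a lower probe set. The share of these probe sets called, 18%, compares with 9.51% of all tested probe sets and 14.9% of those in the bright bin. It counts several probe sets of the same gene, with 6 lower calls from H2A-9, 4 from Tubb5 and 4 from wcH2B-8. With each gene read on its brightest probe set, 2 of the 75 rose and 6 fell, and without control array 2, where 14.7% of all probe sets were called, 2 rose and 15 fell. The median difference of the 75 genes was -0.131, against 0.0472 over all tested probe sets, and without control array 2 it was -0.146 against 0.0675.

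Genes of desiccation tolerance gave the largest named increases. LEA1 encodes a late embryogenesis abundant protein, one of the hydrophilic proteins that build up in drying seeds and under water deficit. Its probe set Ta.23797.1.S1_x_at read 14360, 12150 and 17240 on the low P arrays, against 4730, 7372 and 3278 on the control arrays. Every low P array was above every control array, and control array 2 was the highest of the controls. The difference was 1.57 ± 0.281, or 2.97-fold (adjusted p = 0.00407), and 1.87 without control array 2 (adjusted p = 0.00124).

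Rab15 encodes a dehydrin, a class of protein induced by abscisic acid and drought. On probe set TaAffx.46097.2.S1_at it read 12360, 8993 and 11430 on the low P arrays, against 3087, 4943 and 2200 on the control arrays. The groups were separate, and control array 2 was again the control nearest to low P. The difference was 1.75 ± 0.379, or 3.36-fold (adjusted p = 0.011), 2.06 without control array 2 (adjusted p = 0.00484) and 1.47 without control array 3 (adjusted p = 0.0666). The other Rab15 probe sets, Ta.2704.1.S1_at and Ta.2704.1.S1_x_at, did not pass the test. Ta.2704.1.S1_at read 14410, 13340 and 15140 in low P and 11440, 11080 and 10270 in control, a difference of 0.387 ± 0.18 (adjusted p = 0.181). The probe sets of Rab15 therefore disagreed in size, not in sign.

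The Em proteins are small LEA proteins of the mature embryo. EM read 71.27, 52.47 and 53.63 in low P and 43.57, 51.8 and 51.38 in control, near the array medians, and did not pass (0.263, adjusted p = 0.838). EMH2 read 97.04, 14.1 and 66.87 in low P and 10.12, 63.27 and 10.84 in control, with the groups overlapping (1.24 ± 1.02, adjusted p = 0.466). Of the 4 tested desiccation and cold genes on their brightest probe set, 1 passed, as higher. Of all tested probe sets 4.19% were called higher. The median of the 4 genes was 0.782. It lay between Rab15 at 0.323 and EMH2 at 1.24, and neither of these probe sets passed.

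Core histone genes, which are transcribed mainly in cells replicating their DNA, held 12 of the 19 lower calls among named probe sets and 4 of the 8 genes with such a call. In whole roots, fewer cells of a type and less RNA per cell cannot be told apart. The H2A gene H2A-9 had 6 tested probe sets, and all 6 were called lower with all arrays and again without control array 2. On probe set Ta.27657.12.S1_at, H2A-9 read 704.9, 895.3 and 434.2 in low P, against 1220, 1591 and 1673 in control. The lowest control array lay above the highest low P array. The difference was -1.19 ± 0.208, 2.28-fold lower in low P (adjusted p = 0.00371), and -1.14 without control array 2 (adjusted p = 0.00703). On its brightest probe set, Ta.27657.6.S1_x_at, H2A-9 read 8900, 10270 and 6744 in low P and 11230, 12000 and 15070 in control, a difference of -0.574 ± 0.129 (adjusted p = 0.0132).

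H2A-3 read 2993, 3480 and 2144 in low P, against 4168, 4568 and 5897 in control, on probe set Ta.27192.1.S1_at. The groups did not overlap, and the difference was -0.777 ± 0.159 (adjusted p = 0.00852), -0.816 without control array 2 (adjusted p = 0.00954) and -0.632 without control array 3 (adjusted p = 0.0542). The second H2A-3 probe set, Ta.27192.1.S1_s_at, whose suffix marks probes shared between transcripts, read 572.8, 398.6 and 454.3 in low P and 483.6, 420.6 and 421.4 in control, with no separation (0.0918, adjusted p = 0.704). H2A-2 read 1056, 1369 and 824.6 in low P and 691.9, 1364 and 1008 in control and did not pass (0.109, adjusted p = 0.827).

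The H2B gene wcH2B-8 had 7 tested probe sets, all with negative differences between -0.753 and -0.265, of which 4 were called lower with all arrays and 3 without control array 2. On probe set Ta.7378.21.S1_at, wcH2B-8 read 3035, 4125 and 2226 in low P, against 4145, 4882 and 5075 in control. The highest low P array and the lowest control array were nearly equal, without overlap. The difference was -0.627 ± 0.162 (adjusted p = 0.0252) and -0.597 without control array 2 (adjusted p = 0.0428). It did not pass without control array 3 (adjusted p = 0.106), low P array 1 (adjusted p = 0.0683) or low P array 3 (adjusted p = 0.107). wcH2B-6 was called on 1 of 2 probe sets at -0.431 ± 0.131 (adjusted p = 0.0493), with 4314, 5708 and 3909 in low P overlapping 5425, 6180 and 7031 in control, and the call was lost without control array 2 (adjusted p = 0.0662).

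Hmgb3, a high mobility group box protein of chromatin, read 12130, 12390 and 12320 in low P and 12790, 13210 and 13050 in control on its brightest probe set. The arrays did not overlap, but the difference of -0.084 ± 0.0623 did not pass (adjusted p = 0.412). Of the 6 histone and chromatin genes on their brightest probe set, 3 fell with all arrays, 2 without control array 2 and 0 without control array 3, where limma gave 4 of them an unadjusted p under 0.05. Of all tested probe sets, 5.32%, 6.91% and 1.51% were called lower in these fits. The median of the 6 genes was -0.456, -0.478 and -0.368. After quantile normalization 2 fell. Low P array 2 had the highest of the 3 low P values on all probe sets given above for H2A-9 and wcH2B-8, and on Ta.27192.1.S1_at of H2A-3, and without that array 4 of the 6 genes fell.

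**Figure D3:**
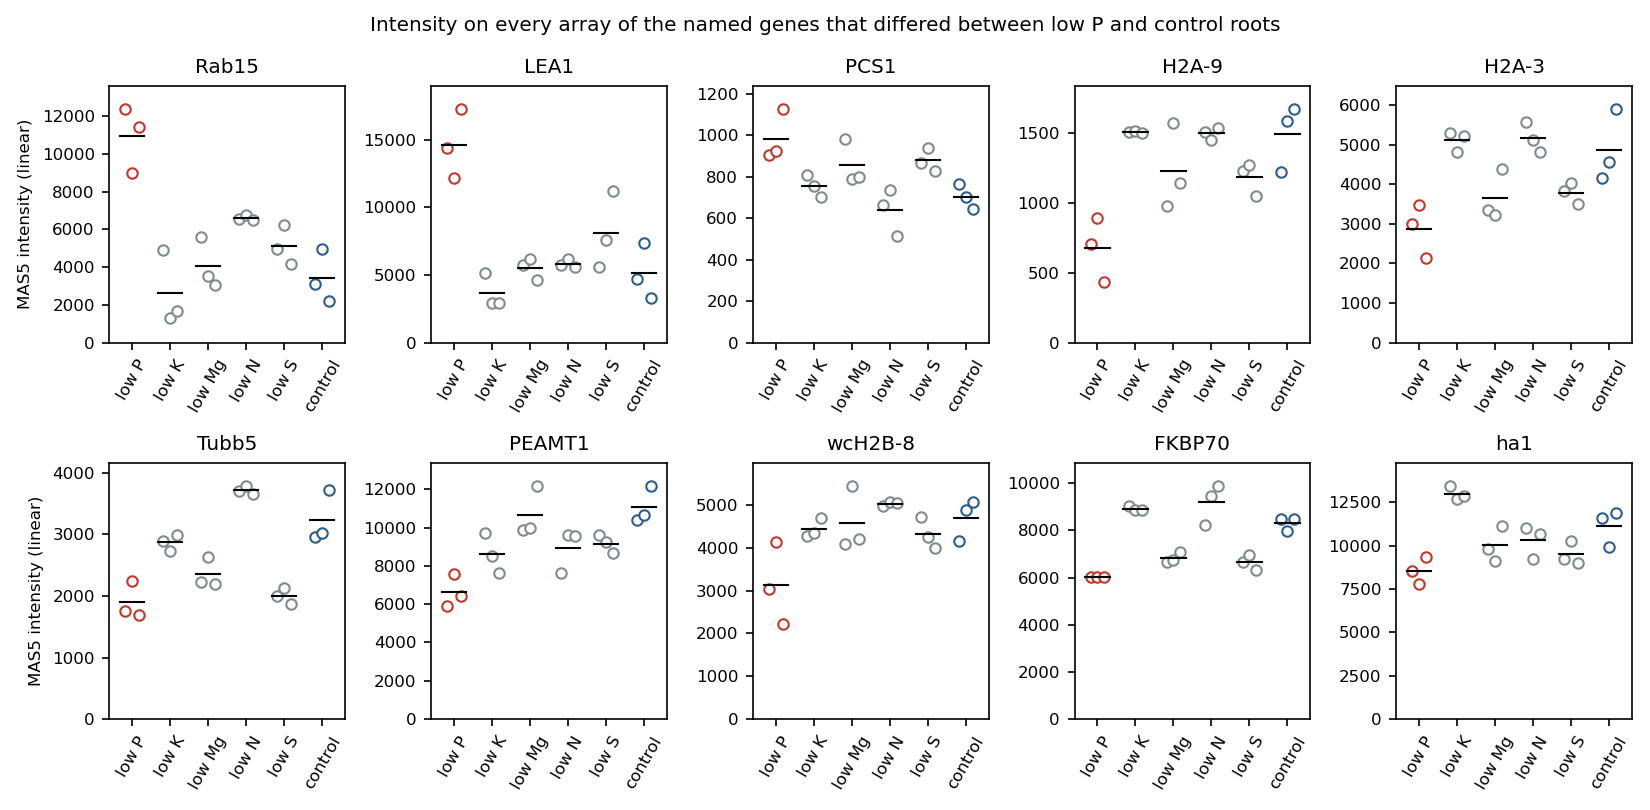
Linear MAS5 intensity (y axis, from 0) on each of the 18 arrays for the 10 genes that were called with separate low P and control arrays, on the probe set of smallest p. Circles, filled or open, are single arrays, and the horizontal bar is the mean of 3 arrays. Groups run low P, low K, low Mg, low N, low S and control. LEA1 and Rab15 are highest and H2A-9, PEAMT1 and FKBP70 lowest in low P on every array, whereas Tubb5 overlaps between low P and low S.

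Among cytoskeletal genes, the beta-tubulin Tubb5 was called lower on all 4 of its probe sets, with and without control array 2. Tubulins build the microtubules of the spindle and of the cell cortex. On probe set Ta.214.1.S1_x_at, Tubb5 read 1750, 2247 and 1698 in low P, against 2961, 3026 and 3714 in control. The groups were well apart. The difference was -0.772 ± 0.111, 1.71-fold lower in low P (adjusted p = 0.00119), and -0.816 without control array 2 (adjusted p = 0.00148). On the other Tubb5 probe sets it was -0.641, -0.844 and -0.576.

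Of the 6 other cytoskeletal genes, 4 were called only when control array 2 was left out. The beta-tubulin tubb2 read 16460, 18740 and 20680 in low P, against 23490, 19060 and 26390 in control. Control array 2 lay within the low P range and the other control arrays above it. The difference was -0.296 ± 0.118 with all arrays (adjusted p = 0.121) and -0.425 without control array 2 (adjusted p = 0.022). The beta-tubulin tubb1, the alpha-tubulin TUBA and PRO1, a profilin that binds actin monomers, likewise passed only without control array 2, at -0.367, -0.388 and -0.339. The beta-tubulins tubb3 (adjusted p = 0.157 with all arrays and 0.0524 without control array 2) and Tubb4 (adjusted p = 0.38 and 0.328) passed in neither fit. With all arrays 1 of the 7 cytoskeletal genes fell on its brightest probe set, and 5 fell without control array 2. When that array was left out and the arrays were quantile normalized as well, 1 fell, and with centring on the 75th percentile 6 fell. The median of the 7 genes was -0.224, -0.367, -0.132 and -0.428 in these 4 fits. Of all tested probe sets 5.32%, 6.91%, 6.9% and 9.46% were called lower in them. In the bright bin the share called lower was 9.68% with all arrays and 14.5% without control array 2.

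PEAMT1 encodes phosphoethanolamine N-methyltransferase, which makes phosphocholine, a precursor of choline, glycine betaine and the phospholipid phosphatidylcholine. Its probe set Ta.1842.1.S1_a_at read 5886, 7571 and 6433 in low P, against 10380, 10660 and 12180 in control. All low P arrays were far below all control arrays, and control array 2 lay between the other controls. The difference was -0.745 ± 0.12, 1.68-fold lower in low P (adjusted p = 0.00218), and -0.77 without control array 2 (adjusted p = 0.00295). LTP3, a lipid transfer protein and the other gene of the membrane lipid list, read 195.8, 248.5 and 194.3 in low P, against 159.1, 148.3 and 96.16 in control. Its arrays did not overlap, but 1 of the other groups' arrays read 928.8, and the difference of 0.686 ± 0.813 did not pass (adjusted p = 0.629).

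SAHH, S-adenosylhomocysteine hydrolase, removes the product of methylation reactions such as that of PEAMT1. On probe set Ta.1258.1.S1_a_at it read 23990, 25210 and 29310 in low P, against 36540, 25750 and 40850 in control. Control array 2 fell within the low P range. SAHH did not pass with all arrays (-0.372 ± 0.145, adjusted p = 0.113) and was lower without control array 2 (-0.567, adjusted p = 0.00845), as was its other probe set (-0.475, adjusted p = 0.0117). COMT1, the lignin O-methyltransferase, did not pass with all arrays (-0.207, adjusted p = 0.306) or without control array 2 (-0.343, adjusted p = 0.0637). PIMT, which repairs damaged aspartyl residues in proteins, read 789.2, 655.1 and 876.7 in low P and 735.4, 416.2 and 411.7 in control, and did not pass (0.616, adjusted p = 0.11).

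Transport and metal genes were few. The proton pump gene ha1 encodes a plasma membrane ATPase that acidifies the root surface and powers the uptake of ions, phosphate among them. On probe set Ta.28364.1.S1_at it read 8524, 7778 and 9349 in low P, against 11620, 9956 and 11880 in control. The groups were separate, with a difference of -0.383 ± 0.096 (adjusted p = 0.0219) and -0.462 without control array 2 (adjusted p = 0.00773). The call was lost without control array 1 (adjusted p = 0.0678), control array 3 (adjusted p = 0.0997), low P array 1 (adjusted p = 0.0622) or low P array 2 (adjusted p = 0.0631). On the brightest ha1 probe set, Ta.28364.1.S1_x_at, low P read 14240, 16470 and 15590 and control 20820, 15030 and 25170, so that control array 2 fell among the low P arrays. That probe set passed without control array 2 (-0.572, adjusted p = 0.00492) and not with it (-0.369, adjusted p = 0.105). The third ha1 probe set did not pass (-0.0486, adjusted p = 0.853).

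TaALMT1 encodes a channel that releases malate from wheat roots under aluminium stress, and was the only gene of the organic acid list. It read 50.3, 86.05 and 61.34 in low P and 78.41, 54.57 and 56.13 in control, around the array medians. No difference was detectable at this intensity (0.0482 ± 0.447, adjusted p = 0.959). The calcium channel gene TPC1 did not pass (0.04, adjusted p = 0.867).

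PCS1 encodes phytochelatin synthase, which makes metal-binding peptides from glutathione. It read 905.5, 922.6 and 1126 in low P, against 763.4, 703.8 and 647.1 in control. The arrays did not overlap, and the difference was 0.478 ± 0.133, or 1.39-fold (adjusted p = 0.0341), and 0.479 without control array 2 (adjusted p = 0.047). The call was lost without control array 3 (adjusted p = 0.137), low P array 1 (adjusted p = 0.0551) or low P array 3 (adjusted p = 0.14). DMAS1, an enzyme of the iron-chelating mugineic acids that grass roots secrete, did not pass on any of 3 probe sets, and on its brightest it read 1139, 1099 and 1053 in low P and 1283, 1092 and 995 in control.

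FKBP70, a peptidyl-prolyl isomerase that assists protein folding, read 6026, 6020 and 6006 in low P, against 8489, 7961 and 8477 in control. The low P arrays were almost equal and all below the controls. The difference was -0.465 ± 0.0674, 1.38-fold lower in low P (adjusted p = 0.00121), and -0.495 without control array 2 (adjusted p = 0.00126). The small heat shock gene hsp16.9A read 57.35, 32.45 and 151.1 in low P and 107.1, 81.18 and 72.26 in control, with the arrays overlapping (-0.387, adjusted p = 0.706).

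**Figure D4:**
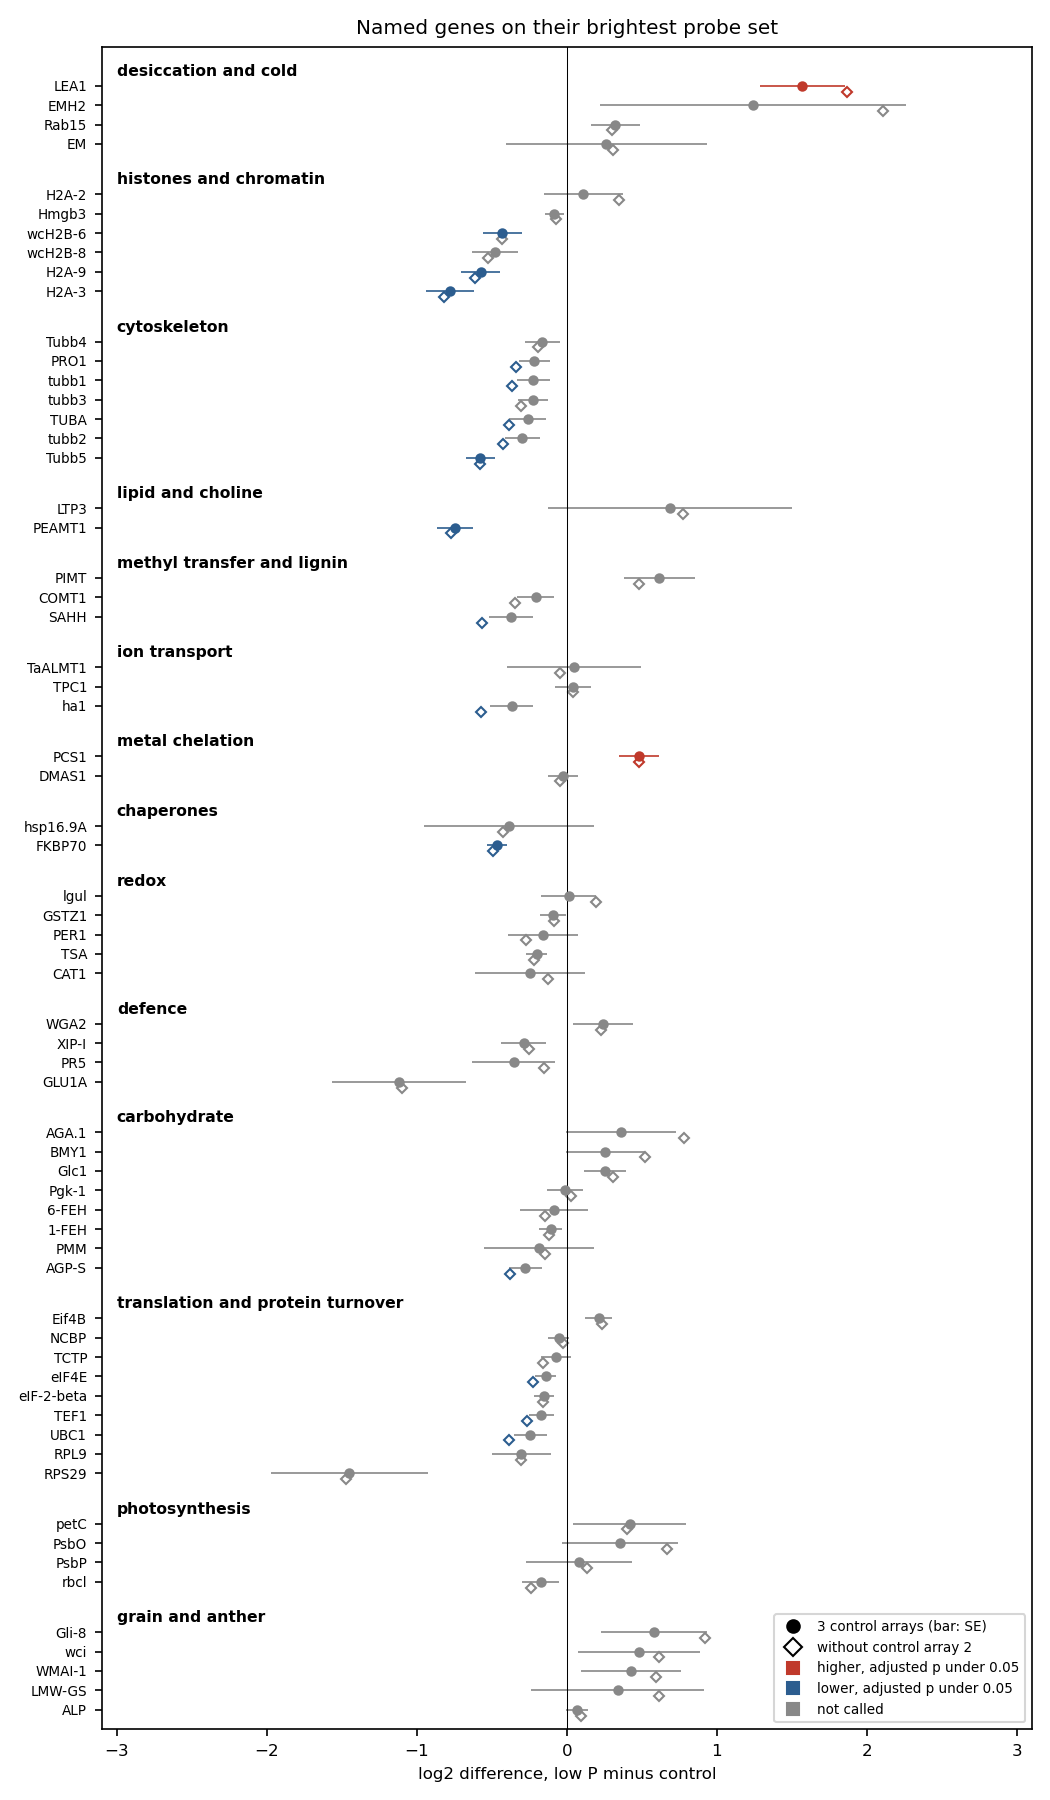
Log2 difference, low P minus control (x axis), for named genes on their brightest probe set, grouped by role. Filled circles with SE bars are from all control arrays and open diamonds from the fit without control array 2, in red where called higher, blue where called lower and grey where not called. LEA1 and PCS1 are the higher calls in both fits, and most of the added lower calls are cytoskeletal and translation genes.

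In translation and protein turnover, 0 of 9 genes passed in limma on their brightest probe set with all arrays (1 higher and 3 lower at an unadjusted p under 0.05), and 3 fell without control array 2. These were TEF1 (elongation factor 1-alpha, -0.269), UBC1 (a ubiquitin-conjugating enzyme, -0.385) and the cap-binding factor eIF4E (-0.228). With control array 2 left out and quantile normalization, 1 fell. eIF4E read 5631, 5755 and 5801 in low P, against 6820, 5612 and 6602 in control, with control array 2 just below the low P arrays. The ribosomal protein gene RPS29 read 84.52, 134.9 and 182.3 in low P, against 297.6, 342.1 and 417.4 in control, on its brightest probe set. The arrays were separate, yet the difference of -1.45 ± 0.524 did not pass (adjusted p = 0.0895), and the other RPS29 probe set differed in the opposite direction (0.579, adjusted p = 0.0961).

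Of 8 tested carbohydrate genes, 0 passed in limma with all arrays (1 lower at an unadjusted p under 0.05), and their median was -0.0498. AGP-S, the small subunit of the starch enzyme ADP-glucose pyrophosphorylase, read 1880, 2104 and 1961 in low P, against 2469, 2092 and 2677 in control, and was lower without control array 2 (-0.377, adjusted p = 0.0367). Control array 2 lay just inside the low P range, and the other controls were higher. Of 5 redox genes and 4 defence genes 0 passed in limma with all arrays, where 1 of each group was lower at an unadjusted p under 0.05, and 0 passed without control array 2, where 1 redox and 0 defence genes were. GLU1A, a beta-glucosidase that releases benzoxazinoid defence compounds, varied most among the defence genes, with 871.8, 4830 and 3462 in low P and 3501, 5478 and 7803 in control (-1.12 ± 0.447, adjusted p = 0.121). The cysteine synthase gene cys1 was lower without control array 2 on 1 of 2 probe sets (-0.323, adjusted p = 0.0317) and not with it (-0.244, adjusted p = 0.101). XTH, a xyloglucan endotransglycosylase that loosens cell walls, read 399.3, 627.4 and 468.3 in low P and 659.3, 920.7 and 531.6 in control and did not pass (-0.487, adjusted p = 0.112). The 3 gibberellin 20-oxidase genes, which make growth-promoting gibberellins, had a median of 0.104, and 0 passed in limma, also at an unadjusted p under 0.05.

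Markers of other tissues were measured in the same roots. Of 4 tested photosynthesis genes 0 were called on their brightest probe set in either fit by limma, and 0 had an unadjusted p under 0.05. PsbO, of the oxygen-evolving complex, read 210.1, 522.9 and 509.1 in low P and 167.5, 465.2 and 344.6 in control, above the array medians and overlapping. The Rubisco large subunit gene rbcl read 16430, 21830 and 22440 in low P and 21660, 20610 and 25930 in control on its brightest probe set, while 2 of its other probe sets passed as higher without control array 2 (0.929 and 1.65). Of 5 tested grain genes 0 passed in limma in either fit, and at an unadjusted p under 0.05 there were 0 with all arrays and 1 without control array 2. The gliadin Gli-8 read 102.1, 102.1 and 82.34 in low P and 80.13, 101.6 and 31.5 in control. The labelled tissue could not be checked against root markers, because none of those listed had a named probe set.

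A contrast without control arrays compared low P with the mean of the other 4 deficiencies, each weighted equally. It called 3695 probe sets (10.8% of those tested), 1461 higher in low P (4.27%) and 2234 lower (6.52%). It called 1495 when low P array 1 was left out and 1088 when low P array 3 was. Both contrasts use the same low P arrays, so their calls are not independent. Both contrasts called 834 probe sets higher and 1486 lower. The low P arrays lay beyond all 15 other arrays at 391 of the higher and 579 of the lower ones. Being called in both selects for such separation, and its share over all tested probe sets was not computed.

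LEA1 read 14580 ± 2560 in low P (SD, n = 3), against 3666 in low K, 5523 in low Mg, 5822 in low N, 8126 in low S and 5127 ± 2080 in control. The 12 arrays of the other deficiencies reached 11190 at most, below every low P array, and the difference from their mean was 1.41 (adjusted p = 0.0012). Rab15, on TaAffx.46097.2.S1_at, differed by 1.4 (adjusted p = 0.00802), with all low P arrays above the highest of those 12 arrays, 6745. With low P array 1 or 3 left out, the Rab15 call was lost (adjusted p = 0.0527 and 0.0553).

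FKBP70 averaged 6017 ± 10.5 in low P (SD, n = 3), against 8918 in low K, 6822 in low Mg, 9188 in low N, 6643 in low S and 8309 ± 301 in control. The low Mg and low S means also lay below control. Every low P array was below the lowest array of the other deficiencies, 6303, and the difference was -0.374 (adjusted p = 0.00064). H2A-9 on Ta.27657.12.S1_at also lay below all 12 of those arrays (976.4 to 1576) and differed by -1.05 (adjusted p = 0.00119). PEAMT1 lay below them as well, but its highest low P array, 7571, was next to the lowest of them, 7605, and the difference was -0.493 (adjusted p = 0.00423).

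Tubb5 overlapped between low P and the other deficiencies. It averaged 1898 ± 303 in low P (SD, n = 3), against 2872 in low K, 2353 in low Mg, 3719 in low N, 2000 in low S and 3234 ± 417 in control. The low S mean lay within the spread of the low P arrays, and the low N mean was the highest of the 6. Tubb5 differed from the mean of the other 4 by -0.498 (adjusted p = 0.00245), with overlapping arrays. H2A-3, wcH2B-8, wcH2B-6, ha1 and PCS1 were also called in this contrast, each with overlapping arrays, at -0.63, -0.591, -0.417, -0.316 and 0.342. Without low P array 3 the calls of H2A-3 (adjusted p = 0.0651) and wcH2B-8 (adjusted p = 0.0937) were lost. That of ha1 was lost when low P array 1 (adjusted p = 0.0632) or 2 (adjusted p = 0.0791) was left out. PCS1, at adjusted p = 0.0468 with all arrays, was not called without low P array 1 (adjusted p = 0.0814), 2 (adjusted p = 0.0626) or 3 (adjusted p = 0.284).

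Genes called against the other deficiencies and not against control were few among those named. WGA2, wheat germ agglutinin, a chitin-binding lectin, read 9062, 8697 and 8408 in low P, against a mean of 6014 ± 1540 over the 12 arrays of the other deficiencies (SD) and 6417, 7285 and 8613 in control. It differed from the other 4 by 0.578 (adjusted p = 0.027) and from control by 0.24 (adjusted p = 0.469). PIMT differed from the other 4 by 0.733 (adjusted p = 0.0206). Another rbcl probe set also passed in this contrast only (TaAffx.128414.196.S1_at, 0.668, adjusted p = 0.0468).

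The largest changes were in probe sets without a named gene. TaAffx.78205.1.S1_at read 129.7, 122.6 and 142.2 in low P, against 2.578, 2.696 and 2.035 in control. Its control values lay far below the array medians, where MAS5 intensities carry little information, so the fitted difference of 5.76 has no firm size and was 3 with 16 added before log2. It reached the median on 5 arrays, 3 of them low P, and so passed the filter through the group where it was high, and its test is not given as support. The other deficiencies lay between, with means of 11.23 in low K, 38.38 in low Mg, 53.88 in low N and 36.59 in low S. TaAffx.104595.3.S1_at read 4405, 2599 and 6130 in low P, against 1.482, 1413 and 128.6 in control, and its control values spanned most of the scale. The difference was 6 ± 1.56 (adjusted p = 0.0256), 8.22 without control array 2 and 3.27 without control array 1. It was not called without control array 3 (adjusted p = 0.0653), low P array 1 (adjusted p = 0.0711) or low P array 3 (adjusted p = 0.0851). The other deficiencies averaged 235.3 in low K, 1609 in low Mg, 950 in low N and 1557 in low S. The difference of low P from them, 2.48 ± 1.23, did not pass (adjusted p = 0.217).

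Among decreases, Ta.20922.2.S1_x_at read 13.44, 31.85 and 19.67 in low P, against 291.1, 286.9 and 212.6 in control. The other deficiencies averaged 184.4 to 274.2, close to control. The difference was -3.68 ± 0.349 (adjusted p = 6.91e-05), and -2.91 with 16 added before log2. Its low P values lay below the array medians, so the size of the difference is not firm. Ta.20922.2.S1_x_at was called in all fits that left out an array and in the fit to the 6 compared arrays (adjusted p = 0.0208). TaAffx.119184.1.A1_at read 3.894, 64.18 and 6.505 in low P, against 166.3, 134.5 and 215.9 in control. Low P array 2 was the highest of the low P arrays. Values this far below the array medians fix no exact difference. The fit gave -3.85 (adjusted p = 0.00463), -3.05 when low P array 1 was left out, -5.07 when array 2 was, and -2.49 with 16 added before log2. It was not called in the fit to the 6 compared arrays (adjusted p = 0.111).

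Genes known only by a running number added 839 tested probe sets of 581 genes, of which 24 probe sets were called higher and 69 lower with all arrays and 41 and 122 without control array 2. The share called was 11.1% with all arrays, against 9.51% of all tested probe sets, and 19.4% without control array 2, against 14.7%. The 4 examples here were chosen after their values were seen. LOC543084 read 17200, 17000 and 20280 in low P, against 5302, 12040 and 3716 in control, with control array 2 the nearest to low P. It rose by 1.55 ± 0.32 (adjusted p = 0.00886) and by 2.03 without control array 2. LOC543220 rose by 1.46 ± 0.42 (adjusted p = 0.0392), a call lost without control array 2 (adjusted p = 0.0518). LOC543176 read 92.77, 60.55 and 35.85 in low P, against 291.9, 149.1 and 177.2 in control (-1.75 ± 0.383, adjusted p = 0.0113). LOC543416 read 64.36, 84.92 and 71.45 in low P, against 184.7, 270.4 and 205.4 in control (-1.57 ± 0.308, adjusted p = 0.00669). Both falls were separate between the groups on all arrays.

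Probe sets whose name ends in _x_at, _s_at or _a_at can bind several related transcripts, including the copies of a gene on the 3 genomes of wheat. Of 10159 such probe sets, 368 were called higher and 772 lower (11.2%). Of 24096 other probe sets, 1066 were called higher and 1051 lower (8.79%). The values of LEA1, PEAMT1 and the Tubb5 probe set given first come from shared probe sets, whereas those of Rab15, H2A-9, H2A-3, wcH2B-8, FKBP70, PCS1 and ha1 given first do not.

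**Figure D5:**
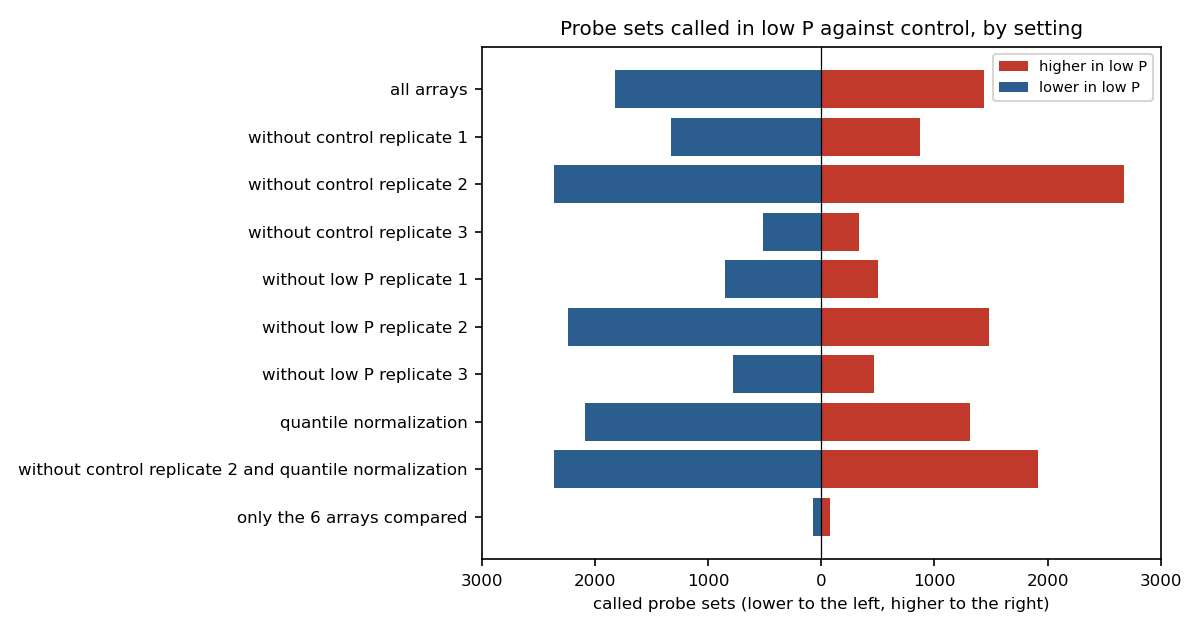
Probe sets called in low P against control (x axis, number) under 10 settings (y axis), lower calls to the left in blue and higher calls to the right in red. The totals shown run from 149 in the fit to the 6 compared arrays to 5041 without control array 2, against 3257 with all arrays.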

How the data were processed

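The authors deposited 1 linear intensity per probe set for each of the 18 Affymetrix Wheat Genome arrays, and Affymetrix Expression Console and MAS5 are named per the submitters' processing notes. Software versions and the scaling target were not given in the sources used here. Biotinylated cRNA was made from 500 ng of RNA, per the labels' protocols. The mean after trimming 2% at each end was 500.1 on every array. Intensities were turned to log2 with no constant.

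Tested probe sets excluded the 111 AFFX controls. A limma model (version 3.58.1, R 4.3.3) of the 6 group means used all 18 arrays (eBayes with an intensity trend, 12 residual and 4.39 prior degrees of freedom), two-sided, and the script was tested on simulated data. Figures used matplotlib 3.10.9.

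Gene names came from GEO's platform annotation, updated through RefSeq symbols for 770 of 771 genes. Keyword lists matched few genes, so the named genes were grouped by role instead. The comparison, lists and groups were chosen with earlier results of these data known. Named genes were those called with separate arrays, on the probe set of smallest p, at most 15 in each direction, which left 10. Genes of the phosphate, transporter, lipid and organic acid lists were named whether called or not. The 2 largest rises and 2 largest falls without a gene were also given. Groups were read on the brightest probe set of each gene. Replicate numbers were not used to pair the arrays across groups.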

Additional observations from a re-analysis of the deposited data

Results flagged for a closer look

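Named genes whose level in low P roots differed from the mean of the other 4 deficiencies, by limma's test of that difference, were singled out. The higher ones were LEA1 at 1.41, Rab15 at 1.4, PIMT at 0.733, WGA2 at 0.578 and PCS1 at 0.342 (log2, low P minus the other 4). The lower ones were H2A-9 at -1.05, H2A-3 at -0.63, wcH2B-8 at -0.591, Tubb5 at -0.498, PEAMT1 at -0.493, wcH2B-6 at -0.417, FKBP70 at -0.374 and ha1 at -0.316. PIMT read 773.7 ± 112 in low P (SD, n = 3), against 340.6 in low K, 466.1 in low Mg, 621.6 in low N and 489.5 in low S. PCS1 passed narrowly (adjusted p = 0.0468) and did not pass without low P array 1, 2 or 3 (adjusted p = 0.0814, 0.0626 and 0.284), without the filter on dim probe sets (adjusted p = 0.075) or without the intensity trend (adjusted p = 0.0679). These contrasts share the low P arrays with the comparison against control.

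Signal was also looked for among the 26924 wheat probe sets left out as dim. In a fit without that filter, 113 of them were called, 87 higher and 26 lower in low P. The same fit called 2283 of all 61179 wheat probe sets, 969 higher and 1314 lower. The share called was thus smaller among the probe sets left out as dim. The intensities of those dim probe sets lie near or below the array medians.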

How the results depend on the processing

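The count against control was 840 at a 2-fold minimum, 149 in the fit to the 6 compared arrays, and 5407 without control array 2 with centring on the 75th percentile (2165 higher, 3242 lower; chosen after seeing the data). Leaving out 1 array gave 847 (without control array 3) to 5041 (without control array 2). Against the other 4 deficiencies it was 543 at a 2-fold minimum and 1088 to 3738 with 1 low P array left out. Quantile normalization gave 3412 and 4267 calls in the 2 contrasts, no filter 2283 and 2725, and no intensity trend 2401 and 2879.

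Over 160 pairs of the 10 named genes and an alternative, the direction against control was kept in 160 and the call in 134. Most of these directions could not have changed, so their count does not test the direction. The genes were chosen for separate low P and control arrays, which fixes the sign when an array is left out. Changing only the filter, the intensity trend, blocking by replicate number or the arrays giving the spread left the difference as it was. The fit to 6 arrays ended the call of each named gene except Rab15, with adjusted p of 0.0523 to 0.174. It has fewer arrays to estimate the spread and takes it from the low P and control arrays alone. The part of either in the lost calls was not tested. LEA1, H2A-9, Tubb5, PEAMT1 and FKBP70 kept their calls in all 15 other alternatives. PCS1 lost its call in 8 of 16.

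Replicate numbers were not taken to mark pairs. Deviations of same-numbered low P and control arrays correlated at 0.106, -0.0657 and 0.00414. Arrays of different numbers were not compared in this way, so these values do not settle whether the numbers mark pairs. With the replicate number as a replicate block the counts were 3266 and 3668. That block was tried only as a check.

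Precision is limited by 3 arrays a group, and dim probe sets by unknown background.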
